A study of Brassica rapa subsp. pekinensis with 10 samples.

Results

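Shin-Hong and Man-Su are varieties of Chinese cabbage (Brassica rapa subsp. pekinensis), a leafy vegetable of the mustard family, and the question here is how their transcript levels differ while the plants are in the cold. The comparison takes the 8 cold stress arrays of the series, out of 10 in all: 4 labelled Shin-Hong and 4 labelled Man-Su, each set with 1 array at 15, 30, 60 and 120 min of cold. Arrays were matched by time and compared over 47548 cabbage features, each a transcript sequence read by up to 7 probes on a one-colour Cy3 NimbleGen array. The other 2 arrays, labelled Shin-Hong normal and Man-Su normal, took no part in the tests and were read afterwards. Those 2 are called wild type in their descriptions, which also mention cold stress, and were taken as normal from their treatment label. The sources used here give no tissue, plant age, temperature or pooling of plants. Each variety had 1 array per time, so the spread behind every test is the change of the variety difference over the 4 times, and a ± SD over 4 arrays spans 4 times of cold. No label says that arrays came from separate plants, so p-values measure only the spread between these arrays, which may be technical.

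Plants sense cold within minutes through changes in membranes and calcium. In Arabidopsis, a related crucifer, the transcription factor ICE1 then switches on the CBF genes, whose proteins activate cold-regulated (COR) genes that protect cells against freezing. Varieties of a crop can differ in this response and also in many transcripts that have nothing to do with cold, and a comparison made in the cold holds both. The files do not pair the features with gene names, and 0 feature IDs were found in the gene table used here, so no gene, pathway or tissue marker could be read and the labelled plant material could not be checked against markers. Features are described by level, size of difference and course over time.

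Some facts of the arrays touch every result. Median levels lay between 12.04 and 12.08 log2 intensity in the 8 arrays. The mean of the 6 control features was 8.37, 8.11, 8.24 and 8.44 log2 in Shin-Hong at 15, 30, 60 and 120 min, against 7.77, 8.36, 7.58 and 7.40 in Man-Su. The Man-Su 30 min array thus had the control level of the Shin-Hong arrays. The difference of 0.52 log2 was within the spread (exact permutation test over arrays, two-sided p = 0.0857, where 4 against 4 cannot go below 0.0286, and p = 0.25 over the 4 matched pairs, which cannot go below 0.125). Without the Man-Su 30 min array the difference was 0.71 (exact permutation p = 0.0286, the smallest possible there, with times not matched). The normal arrays went against their variety labels, as shown last, and their titles carry the letter that the other variety has in the cold. The names of the varieties in the text are those on the labels of the cold arrays, and which set of labels is right was not tested.

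The varieties differed in the cold at many features, about equally in both directions. Levels were higher in Shin-Hong than in Man-Su at 5142 features (10.8% of those tested) and lower at 5470 (11.5%), by limma with time as a block and a Benjamini-Hochberg adjusted p under 0.05. Most of these differences were moderate: the median was 0.79 log2 units, or 1.72-fold, among features higher in Shin-Hong, and -0.79, or 1.73-fold, among those lower. The median standard error was 0.15 and 0.16 log2 units in these sets. In a bulk sample, fewer cells of a type and less RNA per cell cannot be told apart. By the fitted value, a difference of 2-fold or more was reached by 1582 features higher in Shin-Hong and 1577 lower, among the 10612 called in either direction (22.3%). A stricter test, limma's treat, which asks whether a difference exceeds 2-fold and not only 0, called 185 features higher (0.389%) and 188 lower (0.395%).

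Of the called features, 10432 had the same direction at all 4 times, and in 7876 the 4 arrays of Shin-Hong did not overlap the 4 of Man-Su. The test favours features with a shared direction, since its spread is that of the difference over the times. The 10432 are therefore no separate support for the calls. Over all features, 11760 (24.7%) were free of overlap. The count leaned on the 15 and 60 min arrays: without either 15 min array it was 1695 and without either 60 min array 1681, while without either array of 30 or 120 min it was 11551 or 12642. Without the Man-Su 30 min and Shin-Hong 120 min arrays together, and with a slope on time in place of the block, it was 23072, where the slope alone gave 13607. With the control level as a covariate it was 3987, of which 3382 were among the 10612 and all had the same direction. The count beyond 2-fold was 214 without an array of 15 min, 163 without one of 60 min, 1214 without the Man-Su 30 min and Shin-Hong 120 min arrays with the slope (438 with the slope alone), and 336 with the covariate.

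Variety set the arrays apart more than time did. Of the squared deviations summed over all features, 57.4% lay between the varieties (1 degree of freedom), 22.9% between the times (3) and 19.7% in the remainder (3). For the median feature the shares were 37.5%, 26.9% and 24.5%. Across features, which are not independent replicates, Pearson's r was 0.963 to 0.994 among the Shin-Hong arrays and 0.971 to 0.991 among the Man-Su arrays. Between the varieties it was 0.920 to 0.961, below every value within a variety.

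Differences were widest at low and middle levels and shrank towards bright signal. Features were put in 10 deciles by mean level, 1 being the dimmest. In deciles 2 and 3, from 9.03 to 10.83 log2, 32.7% and 33.0% were called. In decile 10, above 13.90 log2, 9.88% were called, 223 higher in Shin-Hong and 247 lower. The median size of a called difference was 0.98 log2 units in decile 1 and 0.58 in decile 10. Fitted differences of 4-fold or more numbered 198 in decile 1, 35 in decile 5, 6 in decile 7 and 0 in deciles 8 to 10. Decile 8 began at 12.95 log2. An intensity of 60000, near the scanner's limit, was reached by 61 features on some array and by 5 on all 8. The part of that limit in these counts was not tested. At the dim end the calls leaned to Man-Su, with 410 higher in Shin-Hong and 793 lower in decile 1, while in each of deciles 4 to 9 more were higher in Shin-Hong. The share called was 22.3% for the 46793 features with 7 probes and 21.5% to 28.6% for features with 3 to 6.

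For most features the interval of the difference was narrow. For 36090 features (75.9%), the 95% interval lay within 2-fold either way, and for the other 11458 (24.1%) it reached 2-fold or beyond. Of the 33944 features with a fitted difference under 0.5 log2 units, 2.99% were called. The share was 62.5% from 0.5 to 1 unit and 94.7% from 1 to 2 units. All 319 features from 2 to 3 units and all 188 above were called.

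**Figure D1:**
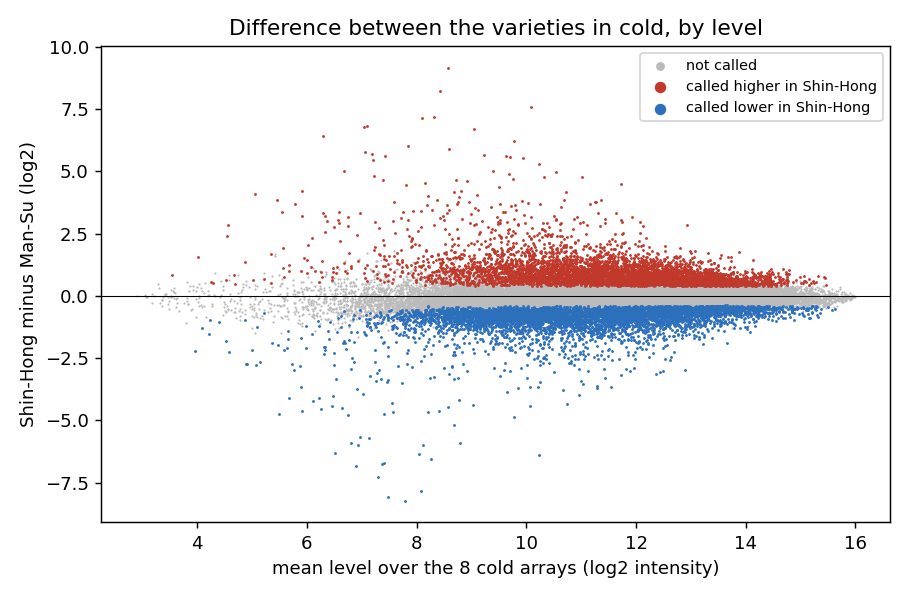
Fitted difference between the varieties (Shin-Hong minus Man-Su, log2) against the mean level over the 8 cold arrays (log2 intensity), 1 point per feature, with the 5142 features called higher in Shin-Hong in red, the 5470 called lower in blue and the rest in grey. The differences are widest at low and middle levels, and no feature in the 3 brightest deciles had a fitted difference of 4-fold.

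Because the largest fitted differences set bright signal against background, 4 features were chosen by size among those whose level exceeded every control feature of the array on all 8 arrays, so that both varieties gave measured signal. This held for 25658 features, of which 3778 (14.7%) were called, 2114 higher in Shin-Hong and 1664 lower. With the same direction asked at each time, 2099 and 1651 remained, and the 2 largest differences each way are given here. All 4 features were read by 7 probes.

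Brapa_ESTC001647 had 13.19, 13.42, 13.46 and 12.76 log2 intensity in Shin-Hong at 15, 30, 60 and 120 min, against 11.39, 11.78, 11.42 and 10.46 in Man-Su. The varieties did not overlap, and both were lowest at 120 min. Means were 13.21 ± 0.32 in Shin-Hong and 11.26 ± 0.56 in Man-Su (SD, n = 4 each), a difference of 1.94 ± 0.14 log2 units (SE), or 3.85-fold (limma adjusted p = 0.000967, and 0.031 for a difference beyond 2-fold).

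Brapa_ESTC028538 was nearly flat over time in Shin-Hong, with 13.75, 13.75, 13.82 and 13.72 log2 intensity at the 4 times. In Man-Su it had 12.08, 11.90, 11.64 and 11.78. The varieties did not overlap. Shin-Hong exceeded Man-Su by 1.91 ± 0.13 log2 units (SE), or 3.75-fold (limma adjusted p = 0.000681, and 0.0233 beyond 2-fold).

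Brapa_ESTC048919 ran the other way, with 12.49, 12.43, 12.08 and 12.01 log2 intensity in Shin-Hong, against 14.12, 14.20, 14.29 and 14.10 in Man-Su. It was steady in Man-Su, and the gap was wider at 60 and 120 min than before. On average the gap was -1.92 ± 0.14 log2 units (SE), with Shin-Hong 3.80-fold lower (limma adjusted p = 0.000955, and 0.0315 beyond 2-fold).

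Brapa_ESTC012818 had 12.10, 12.11, 13.14 and 13.52 log2 intensity in Shin-Hong, against 14.80, 14.73, 14.59 and 14.27 in Man-Su. The arrays did not overlap, and the difference was -2.69, -2.62, -1.45 and -0.75 log2 units at 15, 30, 60 and 120 min. Its slope of 0.70 ± 0.14 log2 units per doubling of time (SE) was not called (limma adjusted p = 0.999). Averaged over the times the gap was -1.88 ± 0.34 log2 units (SE), which limma called (adjusted p = 0.0152), but it was not called beyond 2-fold (limma treat adjusted p = 0.919). Its call was lost without either array of 15 min (-1.61, limma adjusted p = 0.0708) or of 60 min (-2.02, limma adjusted p = 0.0773).

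**Figure D2:**
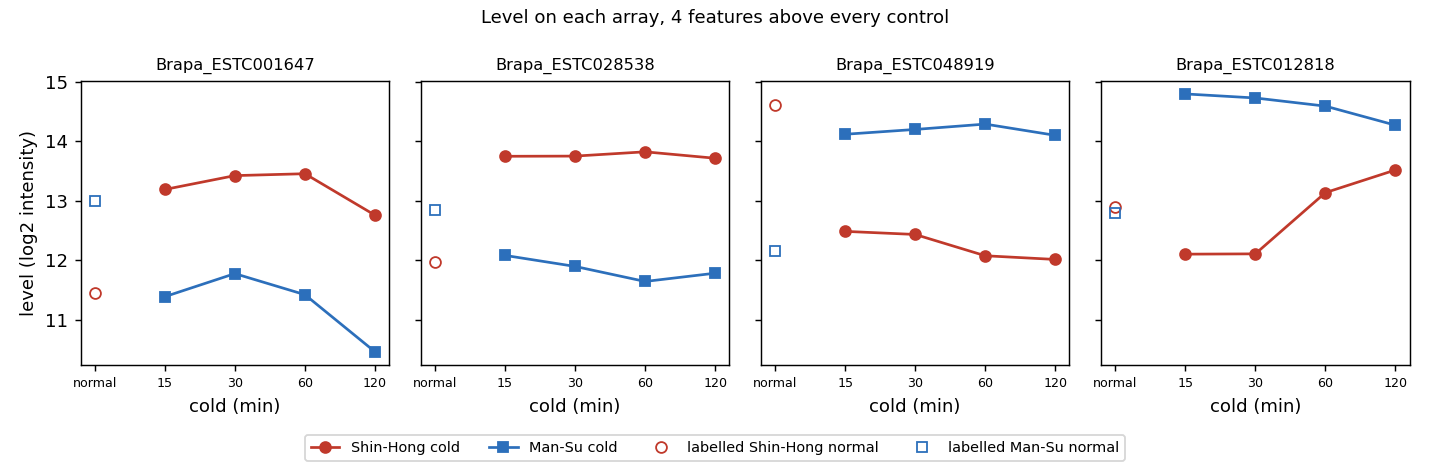
Level (log2 intensity) of 4 features on each array against time in the cold (min, evenly spaced), Shin-Hong cold as red circles and Man-Su cold as blue squares, with the normal arrays as open symbols in the colour of their label. Brapa_ESTC001647 and Brapa_ESTC028538 are higher in Shin-Hong at all 4 times and Brapa_ESTC048919 and Brapa_ESTC012818 lower, and the gap of Brapa_ESTC012818 is 0.75 log2 units at 120 min against 2.69 at 15 min.

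Judged by the random-sequence control, signal at background in only 1 variety was rare, but so was signal at background in both (102 features). This control lay at 5.23 to 5.74 log2 in the 8 arrays, while the lowest decile of levels lay at 8.83 to 9.15. So low a floor keeps all these counts small. In 36 features all 4 Man-Su arrays lay at or below the random-sequence control of their array while Shin-Hong did not. In 78 features the reverse held. The control averaged 5.57 log2 in Shin-Hong and 5.34 in Man-Su, so the cut lay higher in Shin-Hong. Its part in the 36 against 78 was not tested. Of the 36 and 78 features, 28 and 47 were called, where 22.3% of all features were. The values that chose these features also favour a call, so these counts are no separate support. Taking the random-sequence control as a floor, 19 of the 36 were at least 2-fold higher in Shin-Hong and 34 of the 78 at least 2-fold lower. Features above every control in all 4 arrays of a variety and at or below the random-sequence control in all 4 of the other numbered 2 for Shin-Hong and 3 for Man-Su.

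The widest of these contrasts were large at each time, though the one lower in Shin-Hong went from -7.43 log2 units at 15 min to -8.61 at 120 min. One feature had 12.68, 12.79, 12.49 and 12.26 log2 intensity in Shin-Hong, against 4.18, 4.50, 4.39 and 4.15 in Man-Su, and was at least 149-fold higher in Shin-Hong (limma adjusted p = 3.99e-06). The widest in the other direction had 4.43, 4.72, 4.20 and 3.33 in Shin-Hong, against 11.86, 12.22, 11.93 and 11.94 in Man-Su, and was at least 85.7-fold lower in Shin-Hong (limma adjusted p = 3.37e-05). These are bounds on array signal, and the difference in transcript itself was not tested.

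Other features show the range of patterns. The steadiest difference over 4-fold in favour of Shin-Hong was 2.83, 2.67, 2.86 and 2.69 log2 units at the 4 times, from 9.46 ± 0.06 in Shin-Hong and 6.70 ± 0.13 in Man-Su (SD, n = 4 each; limma adjusted p = 9.3e-05). The steadiest in favour of Man-Su was -2.07, -2.13, -1.99 and -2.06 log2 units, although its level moved in both varieties: it had 8.84, 8.91, 9.57 and 8.14 in Shin-Hong, against 10.91, 11.04, 11.56 and 10.20 in Man-Su (limma adjusted p = 0.000244). Both varieties were highest at 60 min and lowest at 120 min there, with the gap between them kept.

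The brightest called features were read next. The brightest of those higher in Shin-Hong had 15.68 ± 0.08 log2 in Shin-Hong and 15.24 ± 0.08 in Man-Su (SD, n = 4 each), a 1.36-fold difference (limma adjusted p = 0.041). The brightest of those lower had 15.14, 15.25, 15.25 and 15.80 in Shin-Hong, against 15.85, 15.95, 15.85 and 15.89 in Man-Su, a 1.44-fold difference (limma adjusted p = 0.0481), with the Shin-Hong 120 min array near the Man-Su level. The Man-Su arrays of 30 and 120 min exceeded an intensity of 60000 there, near the scanner's limit, so the size of this difference is uncertain. Both calls were lost without an array of 15, 30 or 60 min, with limma adjusted p from 0.105 to 0.209, and with the control level as a covariate (limma adjusted p = 0.114 and 0.0809). At the other end, the feature with the narrowest interval around 0 stood at 13.95, 13.94, 13.74 and 13.93 in Shin-Hong and at 13.94, 13.94, 13.74 and 13.94 in Man-Su, with a 95% interval of -0.26 to 0.26 log2 units for its difference.

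Set side by side at each time, 1 array against 1 array and therefore with no test, the varieties were further apart at 15 and 60 min than at 30 and 120 min. At 15 min, 2946 features (6.2%) were at least 2-fold higher in Shin-Hong and 4082 (8.59%) at least 2-fold lower. At 30 min the counts were 2432 (5.11%) higher and 1568 (3.3%) lower. At 60 min they were 3162 (6.65%) and 3527 (7.42%), and at 120 min 1283 (2.7%) and 2888 (6.07%). Features lower in Shin-Hong were thus the fewest at 30 min and features higher in Shin-Hong the fewest at 120 min. At least 2-fold at every time were 506 features higher in Shin-Hong (1.06%) and 426 lower (0.896%). At 4-fold the counts were 136 and 119, at 8-fold 50 and 50, and at 16-fold 23 and 22.

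Differences at the 4 times come from separate arrays. Over all features, Pearson's r between them was highest for 15 and 60 min (0.860) and lowest for 30 and 120 min (0.398), with the other 4 pairs of times at 0.605 to 0.702. Of the features at least 2-fold apart at 15 min, 60.9% were so in the same direction at 60 min, and these made up 64.0% of those at 60 min. For 30 and 120 min the shares were 29.1% and 27.9%. Features 2-fold apart in opposite directions numbered 5 for 15 and 60 min and 367 for 30 and 120 min.

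The largest differences were close to full size at each time but 120 min, and smaller ones narrowed more at 30 and 120 min. Features were chosen by their mean difference at 3 times, with the same direction at each, and read at the time left out. Where the mean was 3 log2 units or more, the time left out had 102% of it at 15 min, 96.7% at 30 min, 100% at 60 min and 85.1% at 120 min, over 178 to 208 features. From 2 to 3 units it had 106%, 88.1%, 102% and 70.9%, over 298 to 395 features. Where the mean was from 1 to 2 units, it had 117%, 52.8%, 108% and 55.0%, over 2143 to 3916 features. From 0.5 to 1 unit the shares were 123%, 48.0%, 117% and 41.9%. Values over 100% at 15 and 60 min are read against means that hold the 30 and 120 min arrays.

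Below 3 units the narrowing came mainly from a different variety at each time. In the set from 1 to 2 units, the Man-Su array of 30 min lay 45.9% of the way from the other Man-Su arrays to the Shin-Hong arrays, while the Shin-Hong array of 30 min lay 1.31% of the way to Man-Su. At 120 min it was the Shin-Hong array that lay 43.4% of the way to Man-Su, and the Man-Su array 1.53% of the way to Shin-Hong. From 2 to 3 units the Man-Su array of 30 min lay 13.7% of the way to Shin-Hong and the Shin-Hong array of 120 min 25.6% of the way to Man-Su. Above 3 units the Man-Su array of 30 min lay 3.57% of the way, while at 120 min both moved about equally, Shin-Hong by 7.55% and Man-Su by 7.33%. The control features of the Man-Su 30 min array had the level of the Shin-Hong arrays and those of the Shin-Hong 120 min array were the highest of the 8, and their part in these shifts was not tested.

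**Figure D3:**
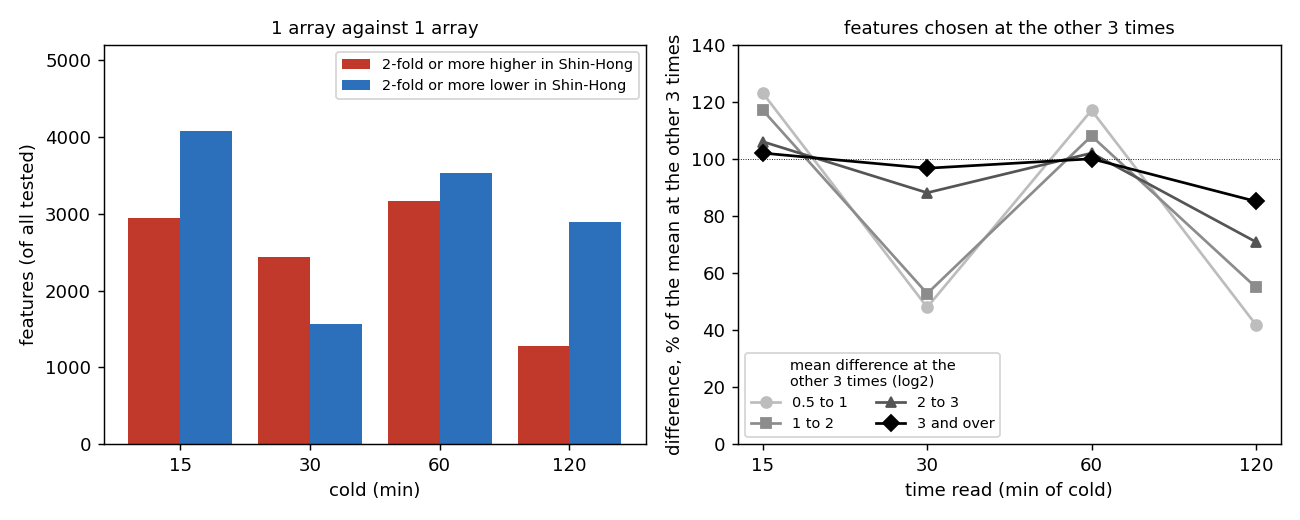
Left, features at least 2-fold higher (red) or lower (blue) in Shin-Hong at each time of cold (min), out of 47548 on a linear axis from 0. Right, the mean difference at a time as a percentage of the mean at the other 3 times, for features chosen at those 3 times and grouped by size (log2). Differences of 3 log2 units or more stay between 85.1% and 102%, while those of 1 to 2 units stand at 52.8% at 30 min and 55.0% at 120 min.

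The features that narrowed were followed further. At both 15 and 60 min, 1971 features were at least 2-fold higher in Shin-Hong and 2310 at least 2-fold lower, and these were read on the 30 and 120 min arrays, which did not choose them. Of the 1971, 506 were also 2-fold apart at 30 and 120 min, 620 at 30 min but not at 120 min, 140 at 120 min but not at 30 min, and 705 at neither. Of the 2310, the numbers were 426, 337, 592 and 955. Features that kept their difference at 30 min alone made up 31.5% of those higher in Shin-Hong and 14.6% of those lower, while features that kept it at 120 min alone made up 7.1% and 25.6%.

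Levels show which array moved. The 620 features averaged 11.68, 11.69, 11.58 and 10.70 log2 intensity in Shin-Hong at 15, 30, 60 and 120 min, against 9.97, 10.23, 9.95 and 10.29 in Man-Su. Their level in Shin-Hong was thus nearly flat for an hour and about a log2 unit lower at 120 min. The 592 features averaged 8.86, 9.13, 8.91 and 8.88 in Shin-Hong, against 10.44, 9.36, 10.36 and 10.31 in Man-Su. They were low in Man-Su at 30 min and at 60 min near their level of 15 min, a dip in 1 array.

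The 337 features lower in Shin-Hong that had closed up at 120 min did so by a higher level in Shin-Hong, which averaged 10.38, 10.41, 10.54 and 11.37, against 11.88, 11.94, 12.04 and 11.84 in Man-Su. The 932 features that stayed 2-fold apart throughout had the widest gap. The 506 higher ones differed by 2.59, 2.37, 2.51 and 2.09 log2 units and the 426 lower ones by -2.41, -2.29, -2.41 and -2.40. The classes were made from the 30 and 120 min values, so their averages at these times describe the classes and test nothing.

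**Figure D4:**
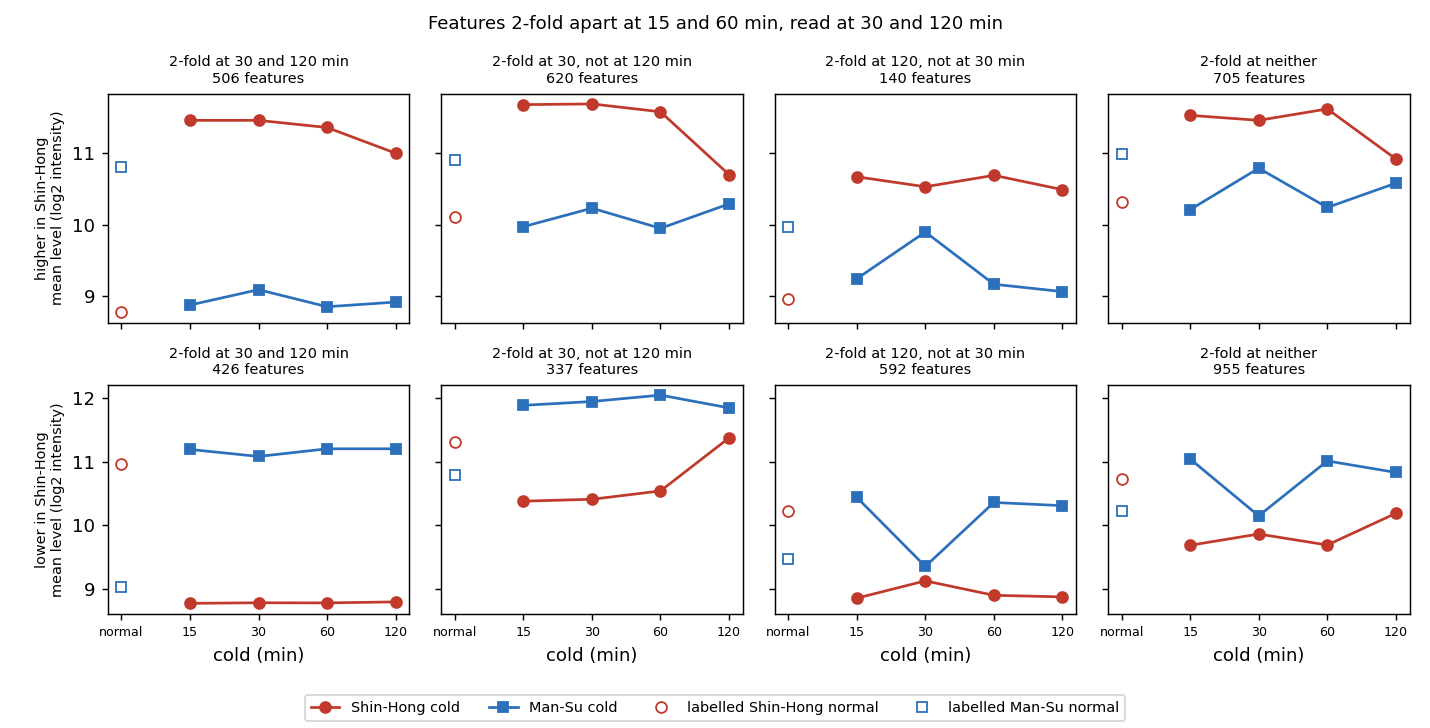
Mean level (log2 intensity) of features at least 2-fold higher (top) or lower (bottom) in Shin-Hong at both 15 and 60 min, by whether they were also 2-fold apart at 30 and 120 min, against time in the cold (min, evenly spaced). Shin-Hong cold is in red circles, Man-Su cold in blue squares and the normal arrays are open symbols in the colour of their label. The second column narrows through the Shin-Hong array of 120 min and the third through the Man-Su array of 30 min.

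Whether the difference widened or narrowed steadily with the length of cold was tested as its slope per doubling of time. No feature was called in either direction (0 of 47548, limma). At an unadjusted p under 0.05, 638 features (1.34%) had a slope towards Shin-Hong and 1081 (2.27%) one towards Man-Su. Together these are fewer than that cut-off would give by chance. The smallest p towards Shin-Hong belonged to a feature with differences of -1.99, -0.76, -0.13 and 1.06 log2 units at 15, 30, 60 and 120 min. It had 9.48, 10.08, 9.80 and 11.23 in Shin-Hong, against 11.47, 10.84, 9.93 and 10.17 in Man-Su. The smallest p towards Man-Su belonged to one with 8.09, 7.68, 5.09 and 4.27 in Shin-Hong, against 6.26, 7.29, 6.21 and 6.54 in Man-Su. Its Shin-Hong values at 60 and 120 min lay below the random-sequence control of their arrays (5.52 and 5.74), so its slope is taken in part over signal not above background. The slopes of the 2 features were 0.98 ± 0.12 and -1.38 ± 0.11 log2 units per doubling (SE; limma adjusted p = 0.999 for both). These 2 features are the extremes of many and neither passed. Without either 15 min array 795 of the 47548 features were called, 62 towards Shin-Hong and 733 towards Man-Su. Without either 30 min array 272 were called, 60 towards Shin-Hong and 212 towards Man-Su. These fits rest on the 3 remaining times.

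The normal arrays were then read at the features that differ in the cold, under the variety labels as given and exchanged. With the labels as given, 1756 of the 10612 called features (16.5%) had the cold direction in the normal arrays, and with the labels exchanged 8856 (83.5%). Over all 47548 features the shares were 33.3% and 66.7%. The share under exchanged labels grew with the size of the cold difference. It was 72.9% of 1016 called features under 0.5 log2 units, 81.1% from 0.5 to 1, 90.6% from 1 to 2, 95.6% from 2 to 3, and 98.9% of 188 features at 3 units or more. Among called features, 26 were at least 2-fold apart in the normal arrays in the labelled direction and 2305 in the exchanged one. With 1 normal array per variety there is no test.

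Sizes were smaller in the normal arrays than in the cold. Under exchanged labels, called features averaged 0.63 log2 units in the cold direction, 65.5% of their 0.95 units in the cold. Features of 3 units or more averaged 3.79 units, 88.4% of 4.29. The called features were chosen for their difference in the cold, so their sizes in the cold and in the normal arrays are not on equal terms. Across all features, the normal difference under exchanged labels had a Pearson's r of 0.599, 0.521, 0.603 and 0.511 with the cold difference at 15, 30, 60 and 120 min.

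Of the 4 named features, 3 went against the labels of the normal arrays. Brapa_ESTC001647 had 11.45 log2 intensity in the array labelled Shin-Hong normal and 12.99 in that labelled Man-Su normal, a gap of -1.54 with the labels as given and 1.54 with them exchanged, against 1.94 in the cold. Brapa_ESTC028538 had 11.97 and 12.84, and Brapa_ESTC048919 had 14.61 and 12.15, both against the labelled direction. Brapa_ESTC012818 had 12.89 and 12.79, and so showed next to no variety difference under either reading. Its normal levels lay between those of Shin-Hong at 30 and 60 min. The steadiest feature in favour of Man-Su likewise had 10.97 and 11.24, a gap of 0.27 log2 units either way, against -2.06 in the cold.

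Features that narrowed at 30 or 120 min were also closer in the normal arrays. Under exchanged labels, the 506 and 426 features kept at every time had normal differences of 2.04 and -1.92 log2 units. The 620 that closed up in Shin-Hong at 120 min had 0.81, and the 592 that dipped in Man-Su at 30 min had -0.76. Of these 4 sets, 96.4%, 96.0%, 88.7% and 91.9% had the cold direction under exchanged labels. Their differences at 15 min were 2.59, -2.41, 1.71 and -1.58 log2 units. The sets kept at every time were thus larger there too, and the normal gaps are not on equal terms. The 140 features higher in Shin-Hong but not 2-fold at 30 min had a normal difference of 1.01, and the 337 that closed up at 120 min had -0.52.

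**Figure D5:**
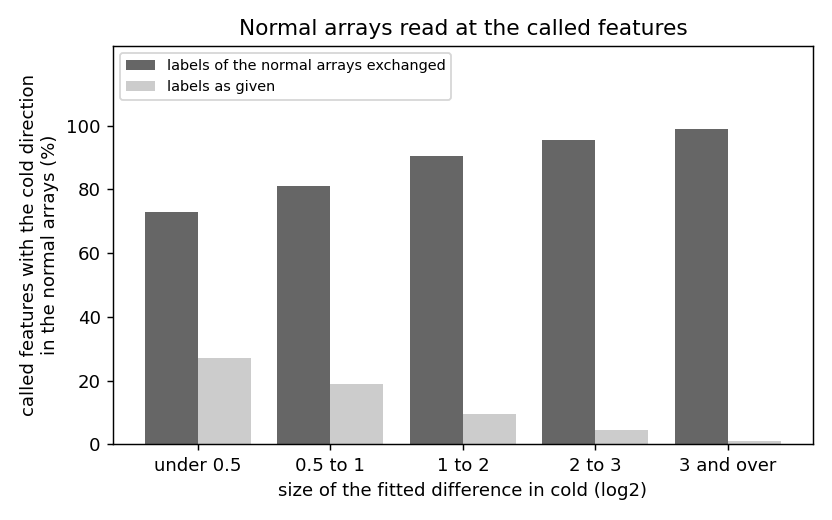
Share (%) of the called features whose difference in the normal arrays has the direction of the cold arrays, with the labels of the normal arrays exchanged (dark) and as given (light), by size of the fitted difference in the cold (log2). Under exchanged labels the share goes from 72.9% to 98.9%, and under the labels as given from 27.1% to 1.06%.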

How the data were processed

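The deposited values are linear intensity per feature. The submitters' processing notes name RMA, a robust average over the probes of a feature after background correction and normalization between arrays; its software is not given in the sources used here. A probe number per feature stands beside each value, per the file headers of the authors. Intensities were used as deposited, on the log2 scale, with no filter. The 6 control features (5 barcode sequences and 1 random-sequence control) were left out of tests. R 4.3.3 with limma 3.58.1 (lmFit, eBayes, treat) fitted the 8 cold arrays, with time as a factor, which pairs the arrays of a time, and 3 residual degrees of freedom. The fit for the slope of the difference and the fit with the control level each add a term and leave fewer degrees of freedom. Benjamini-Hochberg adjustment ran over all 47548 features, and calls were made under 0.05. Single values were tested by exact permutation. The fits were also run on simulated data, where they returned the differences put in on average. They did not call the smaller ones when few features changed. The simulated noise was independent between arrays, with no shift of a whole array, so this checks the code and not the calls made here. The number of arrays limits the precision.

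The comparison, the rules and the lists were chosen with earlier results of these data known. Named features were the 2 largest called differences in each direction with the same sign at every time and every array above all controls. Others were described without ID, 1 per direction and kind: largest bound, brightest called, steadiest over 4-fold and smallest p of a time change, besides the feature nearest to no difference. A bound sets the mean of the bright variety against the mean random-sequence control of the dim one. The lists of cold, flowering, glucosinolate and resistance genes and of tissue markers could not be tested, since the IDs have no gene names here.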

Additional observations from a re-analysis of the deposited data

Results flagged for a closer look

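Each level in the text was checked for an array far from the other 3 of its variety. Of 38 such checks, which overlap, 4 stood out, and chance alone flags about 1 in 20. The random-sequence control was 5.63 log2 in Man-Su cold 30 min, against 5.23 to 5.26 in the other Man-Su cold arrays, and the lowest decile of levels was 8.87 there, against 9.10 to 9.15. Both belong to the array that lay towards Shin-Hong at moderate differences. The feature nearest to no difference stood at 13.74 in Shin-Hong cold 60 min, against 13.92 to 13.95 at the other times, and at 13.74 in Man-Su cold 60 min, against 13.94.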

How the results depend on the processing

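Why counts moved was not tested except where given. The 10612 calls stayed within 1.5 times (7957 to 13713) under quantile normalization over 8 or 10 arrays, the series-wide table, no time block, a slope on time, a trended or robust eBayes, a floor at the random-sequence control and a filter to features above every control in all 4 arrays of a variety. They were 3987 with the control level as a covariate, 23072 without the Man-Su 30 min and Shin-Hong 120 min arrays (with a slope on time) and, added after seeing the data, 20817 without all 30 and 120 min arrays. For calls beyond 2-fold (373) the last 2 settings gave 1214 and 1533, and the filter gave 204, with fewer features tested. The fit without all 30 and 120 min arrays rests on 4 arrays. The standard errors of the 10 called features in the text ran from 0.176 to 0.223 there, against 0.109 to 0.336 in the main fit. Little of a feature's own spread enters such errors, so 20817 and 1533 are no sign of more differences. A feature can pass the filter through 1 variety alone, where it is high, so the counts under it are no separate support. The 7957 calls under the filter held 5330 of the 10612. Leaving out 1 array gave 1681 to 12642 calls, 163 to 434 beyond 2-fold and 0 to 795 for the time slope, which had 0 by limma under the 5 other settings run (1721 to 3353 at an unadjusted p under 0.05). An array and its time-mate give the same fit, since the one left alone adds nothing. Without a 30 min array 4496 of the calls were higher in Shin-Hong and 7055 lower. With the covariate the split was 2251 to 1736. The control level difference was 0.39 to 0.71 with 1 array left out, and passed 0.05 only without Man-Su 30 min (0.71, exact permutation p = 0.0286, the smallest possible there). Exchanged labels of the normal arrays gave 83.5% in place of 16.5%, by construction. With the labels as given, quantile normalization over all 10 arrays gave 17.4%. None of the 10 named or described features called between the varieties changed sign. Of these, the calls lost are given in the report, save the brightest lower feature under quantile normalization over 8 arrays (-0.47, limma adjusted p = 0.0516) and the brightest higher one without all 30 and 120 min arrays (0.41, limma adjusted p = 0.0674). Features 4-fold apart at every time numbered 244 to 266, from 255.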
